A study of Mus musculus with 8 samples.

Results

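Amino acid transporters of the solute carrier (SLC) families 1, 3, 6, 7, 36, 38 and 43 were described in the livers of P2X4R-deficient and wild-type mice during immune-mediated hepatitis. The members were chosen by gene symbol, as every gene whose symbol begins with Slc, the number of one of these 7 families, the letter a and a digit. That gave 64 of the 21899 genes in the deposited table. Of these, 63 encode a carrier or a carrier subunit, and Slc7a6os matches by name only, since it lies on the opposite strand next to Slc7a6 and is no carrier. RNA was sequenced in 8 libraries of liver taken 8 h after concanavalin A (ConA), a lectin from jack bean whose injection sets off T cell-driven liver injury. The deficient group of 4 libraries is labelled as a P2X4R knockdown and described for the series as P2X4R-/-, and the other 4 libraries are wild type (WT). All 8 received ConA, and livers without it were not analysed here. P2X4R, encoded by P2rx4, is an ATP-gated cation channel, and the question addressed was how its depletion alters liver gene expression in this hepatitis. The labels give no strain, age, sex, batch or day, do not say in which cells or by which allele the receptor was lost, nor from how many animals the 8 libraries came. P-values therefore measure only the spread between these samples, which may in part be technical.

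Hepatocytes take up amino acids for protein synthesis, for the urea cycle and for glucose production, and each substrate class has its own carriers. System A carriers (Slc38a1, Slc38a2, Slc38a4) pull neutral amino acids in with sodium, and system N carriers (Slc38a3, Slc38a5) move glutamine in either direction. Many SLC7 proteins are light chains that need a SLC3 heavy chain to reach the membrane, and the cationic carriers of SLC7 bring in arginine and lysine. SLC6 carriers bring in glycine, taurine, betaine, creatine or GABA with sodium and chloride. SLC36 and several SLC38 proteins work at the lysosome, and the SLC43 proteins LAT3 and LAT4 move branched-chain and aromatic amino acids without an ion.

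Libraries held 15445285 to 16604190 counted reads. P2rx4, with 286, 401, 467 and 516 reads in the deficient libraries 1 to 4 and 692, 888, 906 and 898 in the wild-type libraries, had a log2 fold change of -1.18 (SE 0.19, edgeR adjusted p = 0.00481). Every deficient library lay under every wild-type library for this gene, and each still held P2rx4 reads. Which part of the gene was altered is not stated in the labels. The hepatocyte markers Alb, Apoa1, Ttr, Ahsg, Serpina1a, Fgb, Cps1 and Hpd were all present, with Alb, which encodes albumin, at a mean of 28990 FPKM in deficient and 37940 FPKM in wild-type livers. Of the kidney markers Slc34a1, Lrp2, Umod and Kap, none passed the expression filter, and Slc34a1 and Kap had 0 reads. All levels are FPKM, read counts scaled to gene length and library size, and rescaled by TMM factors so that levels and fold changes share 1 scale. A fold change is the log2 difference of deficient over wild type from edgeR's quasi-likelihood test, and an adjusted p comes from that test over 11380 genes with a threshold of 0.05.

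Of the 64 genes, 32 passed the expression filter and were tested. Deficient livers had lower RNA of 9 of them and higher RNA of 0. The 9 were Slc6a13, Slc38a4, Slc7a7, Slc38a3, Slc7a1, Slc6a9, Slc7a6, Slc43a1 and Slc6a12. Their deficient levels were 42.5% to 62.8% of wild type, and their log2 fold changes lay between -0.67 and -1.23. That is 28.1% of the tested members, beside 10.6% of all tested genes lower, 9.27% higher and 19.9% in either direction. At an unadjusted p under 0.05, 10 members were lower and 0 higher, and in DESeq2 10 passed as lower and 0 as higher. The median log2 fold change over the 32 members was -0.28, beside 0.00 over all tested genes. In 8 members (25.0%) the 4 deficient values did not overlap the 4 wild-type values, all 8 lower in deficient livers, a share next to the 24.9% of all tested genes in either direction. When libraries were scaled by size alone, which moved the median of all genes to 0.14, 6 members were lower and 0 higher.

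The number lower was 5 without deficient 1, 3 or 4 or without wild type 2 or 4, 4 without wild type 3, 6 without wild type 1 and 9 without deficient 2. The number higher was 1 without deficient 1 (Slc38a7) and 1 without wild type 1 (Slc1a5). In limma on log2(FPKM + 1), 5 were lower, without Slc7a1, Slc7a6, Slc43a1 and Slc6a12. Over all genes the number lower was 1209 in the test used and 528 to 1309 with a library left out. It was 843 with library size alone and 820 in this limma setting. That setting used the deposited FPKM without TMM factors, and the median of all genes in it was 0.095. Its scale also understates the change of low genes. Slc7a6, Slc43a1 and Slc6a12 did not pass in limma on log2(FPKM + 0.1) either. The 6 lower with library size alone were without Slc7a6, Slc43a1 and Slc6a12. Deficient 1 held the lowest value of the 8 libraries for 7 of the 9 genes, and deficient 3 for the other two.

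Markers of several cell types differed between the groups as well. The summed level of the 8 hepatocyte markers ran from 92620 to 122900 CPM (counts scaled to library size) in deficient libraries and from 124500 to 143500 CPM in wild-type libraries, with the lowest value in deficient 1. In mean FPKM most of the sum was Alb, with 28990 of 46650 in deficient and 37940 of 57450 in wild-type libraries. Alb itself did not pass (-0.388, edgeR adjusted p = 0.0884). Of these 8 markers 2 fell (25.0%, beside 10.6% of all genes) and 0 rose, with a median log2 fold change of -0.38. They were Cps1, an enzyme of the urea cycle, at -0.94 (adjusted p = 0.022), and Hpd, an enzyme of tyrosine breakdown, at -0.63 (adjusted p = 0.0432). The Cps1 call ended when deficient 1 (adjusted p = 0.0522), deficient 3 (0.0656) or wild type 3 (0.0724) was left out, and Hpd passed with a library left out only without deficient 4. Fgb, a fibrinogen chain, was estimated higher (0.235, adjusted p = 0.396). Among 8 periportal markers 2 fell (25.0%, beside 10.6% of all genes) and 1 rose (12.5%, beside 9.27%), with a median log2 fold change of -0.3. Their summed level was 5217 to 6650 CPM in deficient and 5087 to 6045 CPM in wild-type libraries. The 2 that fell were Cyp2f2 (-0.675, edgeR adjusted p = 0.018) and Cdh1 (-1.275, edgeR adjusted p = 0.0193). For these 2, results with a library left out are not given here. The one that rose was Arg1, the last enzyme of the urea cycle (0.60, adjusted p = 0.031), and it did not hold in 5 of the 8 cases of a library left out (deficient 1 and 4 and wild type 1, 3 and 4, adjusted p = 0.0526 to 0.0828).

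Neutrophil markers summed to 77.8 to 154 CPM in deficient and 22.1 to 88.3 CPM in wild-type libraries. Of 6 tested 2 rose (33.3%, beside 9.27% of all genes) and 0 fell. They were Mmp8 (2.12, adjusted p = 0.0209) and Cxcr2 (1.53, adjusted p = 0.0312). Mmp8 lost its call when deficient 4 or wild type 3 was left out, and Cxcr2 when deficient 1 or 4 or wild type 2, 3 or 4 was. Cholangiocyte markers summed to 43.4 to 152 CPM in deficient and 194 to 233.5 CPM in wild-type libraries. Of 5 tested 1 fell, beside 10.6% of all genes, and 0 rose, beside 9.27%. The gene that fell was Sox9, a transcription factor of bile duct cells (-2.055, adjusted p = 0.0248). Its call ended when deficient 3, deficient 4 or wild type 3 was left out. Sox9 averaged 8.84 FPKM in deficient and 36.7 FPKM in wild-type livers. Spp1 was estimated higher, at 34.65 and 29.0 FPKM (0.257, edgeR adjusted p = 0.633). Krt19, Krt7 and Epcam were estimated lower and did not pass (edgeR adjusted p = 0.293, 0.483 and 0.511). Of 7 endothelial markers 2 fell (28.6%, beside 10.6% of all genes) and 0 rose. Among 6 stellate cell markers 1 fell (16.7%, beside 10.6%) and 0 rose. The summed CPM of both lists overlapped between the groups. In bulk tissue, fewer cells of a type and less RNA per cell cannot be told apart, and the part of these markers in the transporter results was not tested.

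**Figure D1:**
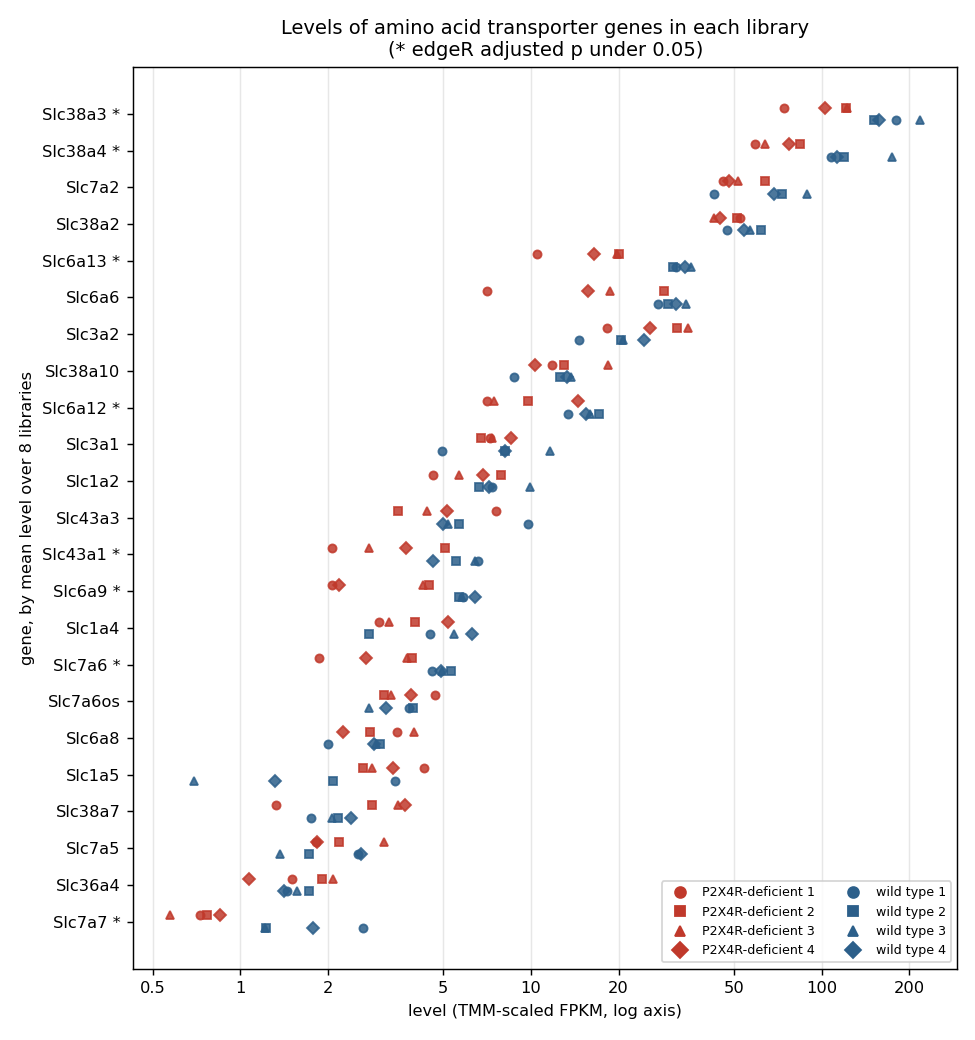
Level of each gene with a mean of 1 FPKM or more in each of the 8 libraries (TMM-scaled FPKM, log axis), with red deficient points above blue wild-type points and the symbol giving the library number. Slc38a3 and Slc38a4 lead the order, and the red points lie left of all blue points for Slc38a3, Slc38a4, Slc6a13, Slc6a9, Slc7a6 and Slc7a7.

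Of the 64 genes, 12 had a mean level of 5 FPKM or more, and 11 lay between 1 and 5 FPKM. The order of mean levels was Slc38a3, Slc38a4, Slc7a2, Slc38a2, Slc6a13, Slc6a6, Slc3a2, Slc38a10, Slc6a12, Slc3a1, Slc1a2 and Slc43a3. The leading 4 held 64.7% to 68.9% of the summed level of all members in deficient libraries and 68.6% to 74.4% in wild-type libraries. Slc7a2 and Slc38a2 were neighbours whose values interleaved, and so were Slc3a1, Slc1a2 and Slc43a3. The 32 genes not tested had at most 16 reads in any library and 50 in all together, and 10 of them had 0 reads throughout. A count of 0 allows up to 3 reads in a library, or 0.172 to 0.211 CPM, as far as counting error goes. Among those not tested were all the monoamine carriers Slc6a2, Slc6a3 and Slc6a4 and the neutral amino acid carriers and orphans Slc6a7, Slc6a14 to Slc6a19, Slc6a20a and Slc6a20b.

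System N and system A carriers held most of the transporter RNA, and Slc38a3 and Slc38a4 fell. Slc38a3 (ENSMUSG00000010064; chromosome 9, 107527833 to 107546729, minus strand), the glutamine carrier of hepatocytes, stood at 74.3, 120.9, 122.3 and 102.7 FPKM in deficient libraries 1 to 4 and at 179.4, 151.0, 217.6 and 157.5 FPKM in wild-type libraries 1 to 4. Every deficient value lay under every wild-type value, with deficient 1 lowest and wild type 3 highest. The means were 105 ± 22.4 and 176 ± 30.02 FPKM (SD, n = 4), a log2 fold change of -0.75 (SE 0.20, edgeR adjusted p = 0.0224). Without wild type 3 it was -0.63 (adjusted p = 0.0747), and it passed in every other setting run.

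Slc38a4 (ENSMUSG00000022464; chromosome 15, 96892701 to 96953837, minus strand), a sodium-coupled carrier of neutral amino acids abundant in liver, stood at 59.0, 83.9, 63.9 and 77.0 FPKM in deficient livers. Wild-type libraries held 107.6, 119.5, 174.2 and 112.5 FPKM. The groups did not overlap, and wild type 3 was again the highest. Slc38a4 fell, with a log2 fold change of -0.86 (SE 0.20, edgeR adjusted p = 0.0139), from 128.5 ± 30.9 to 71.0 ± 11.5 FPKM (SD, n = 4), and passed in every setting run.

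Slc38a2, the system A carrier that cells raise when amino acids are short, did not pass (-0.21, adjusted p = 0.358). It stood at 52.3, 51.0, 42.5 and 44.6 FPKM in deficient and 47.25, 62.0, 56.8 and 54.0 FPKM in wild-type libraries, so the groups overlapped. Slc38a1 was low, with 29 to 51 reads per library (adjusted p = 0.582). Within a library, the ratio of Slc38a4 to Slc38a2, which does not depend on how libraries are scaled, was 1.13, 1.65, 1.5 and 1.73 in deficient libraries 1 to 4. In wild-type libraries 1 to 4 it was 2.28, 1.93, 3.07 and 2.08, above every deficient value. The ratio of Slc38a3 to Slc38a2 averaged 2.24 ± 0.605 in deficient and 3.24 ± 0.685 in wild-type libraries (SD, n = 4), with overlapping groups. Ratios of gene pairs were chosen after the values were seen and are given without a test.

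The remaining tested SLC38 genes did not pass. Slc38a10, which binds and carries several amino acids, stood at 11.8, 13.0, 18.4 and 10.35 FPKM in deficient and 8.75, 12.6, 13.8 and 13.3 FPKM in wild-type libraries (0.15, adjusted p = 0.649). Slc38a7, a lysosomal glutamine carrier, averaged 2.84 ± 1.07 and 2.10 ± 0.266 FPKM (SD, n = 4, edgeR adjusted p = 0.288) and passed only without deficient 1, at 0.67 (adjusted p = 0.0383). Slc38a9, the lysosomal arginine sensor that signals to mTORC1, had 34 to 84 reads per library (0.41, adjusted p = 0.354), and Slc38a6 had 19 to 34 (adjusted p = 0.687).

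**Figure D2:**
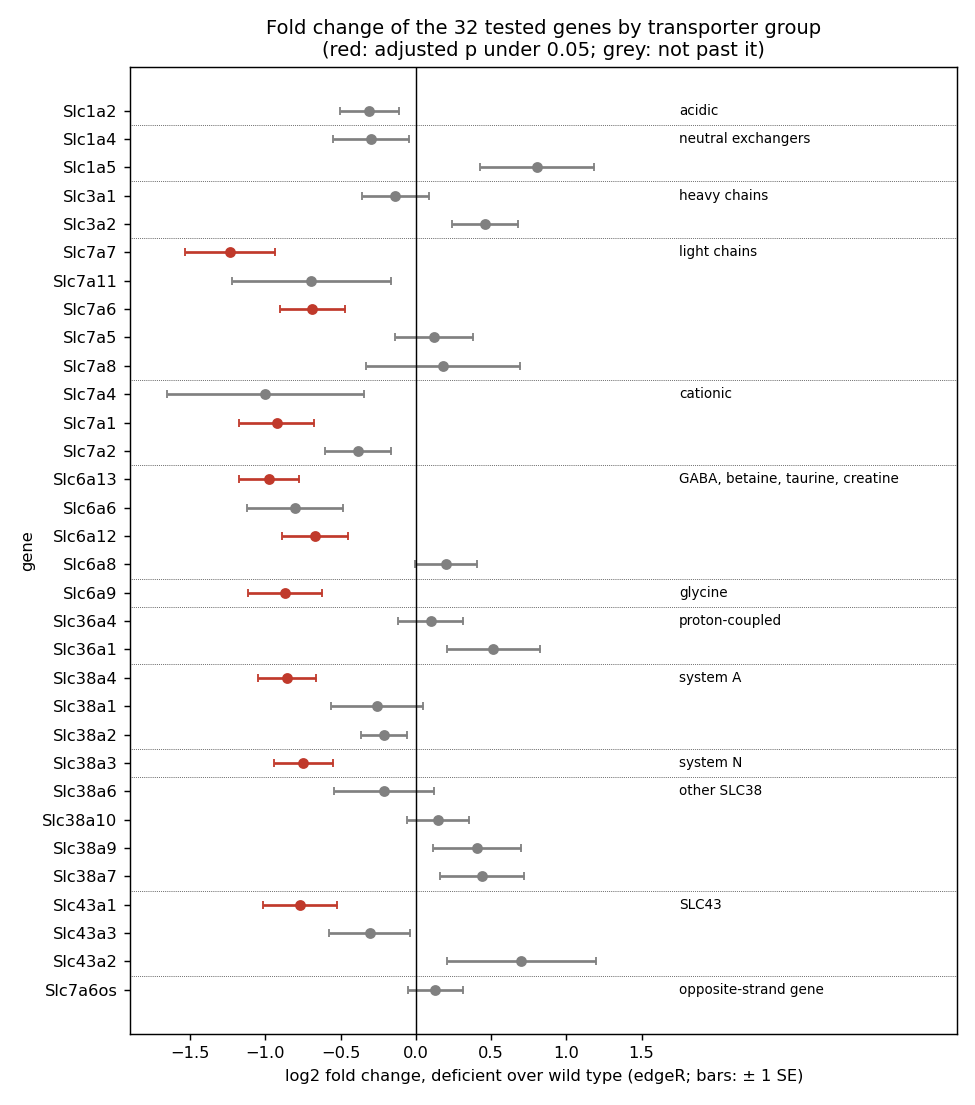
Log2 fold change of deficient over wild type with its standard error for the 32 tested genes, set out by transporter group. The 9 red genes past the threshold lie on the negative side, in the light chain, cationic, GABA and betaine, glycine, system A, system N and SLC43 groups.

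In the SLC6 family most genes were not expressed, and most that were fell. Of 21 members 5 were tested, 3 fell (Slc6a13, Slc6a12 and Slc6a9) and 0 rose, with a median log2 fold change of -0.80. Over all tested genes 10.6% were lower and 9.27% higher. The summed SLC6 level was 30.35, 66.1, 54.25 and 51.25 FPKM in deficient libraries 1 to 4 and 80.3, 86.2, 94.7 and 90.2 FPKM in wild-type libraries. The wild-type libraries lay close together while the deficient libraries were spread, with deficient 1 far under the rest.

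Slc6a13 (ENSMUSG00000030108; chromosome 6, 121277186 to 121314692, plus strand), which encodes GAT2, a GABA and taurine carrier of liver and kidney, stood at 10.5, 20.1, 19.7 and 16.5 FPKM in deficient libraries. Wild-type libraries held 31.5, 30.75, 35.45 and 33.9 FPKM, all above the deficient range. It fell, with a log2 fold change of -0.98 (SE 0.20, edgeR adjusted p = 0.00949), from 32.9 ± 2.17 to 16.7 ± 4.43 FPKM (SD, n = 4), the smallest adjusted p among the members, and passed in every setting run.

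Slc6a12 (ENSMUSG00000030109; chromosome 6, 121320035 to 121342734, plus strand), the betaine and GABA carrier BGT1, lies 5.3 kb downstream of Slc6a13 on the same strand, in the table's coordinates. Its levels were 7.04, 9.77, 7.49 and 14.5 FPKM in deficient and 13.4, 17.1, 15.9 and 15.4 FPKM in wild-type libraries, and deficient 4 lay inside the wild-type range. It fell by 0.67 (SE 0.22, edgeR adjusted p = 0.0487). With a library left out it passed only without deficient 4, at -0.95 (adjusted p = 0.0131), and otherwise lay between adjusted p = 0.051 without wild type 1 and adjusted p = 0.123 without deficient 3. The ratio of Slc6a13 to Slc6a12 was 1.14 to 2.63 in deficient and 1.80 to 2.34 in wild-type libraries.

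Slc6a9 (ENSMUSG00000028542; chromosome 4, 117691703 to 117732395, plus strand), the glycine carrier GlyT1, stood at 2.07, 4.45, 4.25 and 2.19 FPKM in deficient and 5.86, 5.63, 5.80 and 6.40 FPKM in wild-type libraries. The groups did not overlap, and deficient 1 and 4 were lowest. It fell by 0.87 (SE 0.25, edgeR adjusted p = 0.0291). Leaving out deficient 1 or 4, or wild type 3 or 4, ended the call, with log2 fold changes of -0.71, -0.74, -0.88 and -0.82 and adjusted p = 0.0599, 0.0651, 0.0669 and 0.0657. The B4galt2 and Ccdc24 genes overlap it on the opposite strand, with 13 and 3 reads in all, and the counting is not stated to use strand.

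Slc6a6, the taurine carrier TauT, did not pass (-0.80, SE 0.32, edgeR adjusted p = 0.0937). Deficient libraries held 7.05, 28.7, 18.75 and 15.65 FPKM and wild-type libraries 27.25, 29.5, 34.3 and 31.5 FPKM. Deficient 2 lay within the wild-type range and the other deficient libraries under it. It passed without deficient 2 (-1.15, adjusted p = 0.0197) and in DESeq2 (adjusted p = 0.0454). Slc6a8, the creatine carrier, was at 3.11 ± 0.746 and 2.71 ± 0.476 FPKM (SD, n = 4, edgeR adjusted p = 0.528).

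**Figure D3:**
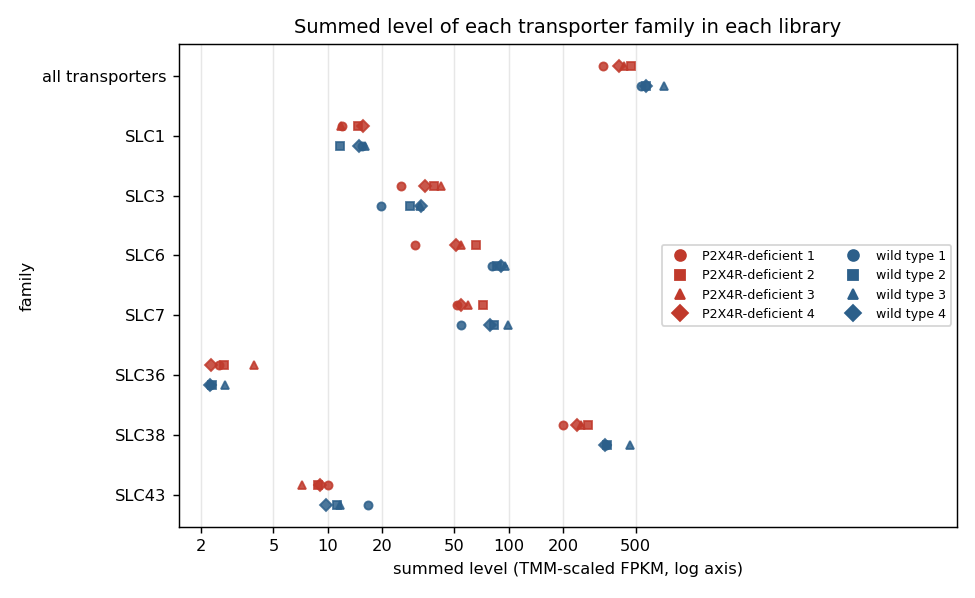
Summed level of each SLC family and of all 63 carriers and subunits in each library (TMM-scaled FPKM, log axis). Red deficient points lie left of all blue wild-type points for SLC6, for SLC38 and for the total, where deficient libraries reach 475 and wild-type libraries begin at 534 FPKM.

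Summed over the 63 carriers and subunits, deficient livers held 331, 475, 430 and 406 FPKM and wild-type livers 534, 571, 720.5 and 569 FPKM. The means were 410 ± 60.1 and 599 ± 83.1 FPKM (SD, n = 4), so that the deficient total was 68.6% of wild type. SLC38 was at 64.2% and SLC6 at 57.5% of wild type, in each case with no overlap of the groups. The SLC7 (75.5%) and SLC43 (71.3%) sums were lower in mean with overlapping groups. SLC1 (93.2%), SLC3 (124%) and SLC36 (119%) overlapped as well, and SLC1 moved to the other side of equality, at 0.04 on the log2 scale, when libraries were scaled by size alone. No test is given for these sums because they are scores over chosen members.

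Among the light chains and their heavy chains, 2 light chains fell and no heavy chain passed. Slc7a7 (ENSMUSG00000000958; chromosome 14, 54606899 to 54655237, minus strand) encodes the light chain that exports arginine and lysine in exchange for neutral amino acids in gut, kidney and macrophages. It was low, at 0.728, 0.768, 0.576 and 0.849 FPKM in deficient and 2.65, 1.23, 1.21 and 1.78 FPKM in wild-type libraries, with 33 to 139 reads per library. All deficient values lay under the wild-type values, and wild type 1 was highest. It fell by 1.23 (SE 0.30, edgeR adjusted p = 0.0174), which was the largest fall among the members past the threshold. The call held without each library in turn, with adjusted p = 0.0194 to 0.0499. In limma on log2(FPKM + 1) it was at -0.55. Oxa1l overlaps its end by 232 bases on the opposite strand and had 3229 reads in all.

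Kupffer cell and macrophage markers were lower as well. Of the 7 markers Clec4f, Cd5l, Timd4, Vsig4, Adgre1, Marco and Csf1r, 4 fell (57.1%, beside 10.6% of all genes) and 0 rose, with a median of -1.06. Their summed level was 27.5 to 33.9 CPM in deficient and 33.8 to 115 CPM in wild-type libraries, highest in wild type 1, and none was at 0 reads. Clec4f, a lectin specific to Kupffer cells, was at 16.1 FPKM in wild type 1, 9.42 in wild type 2, 5.18 and 5.29 in wild type 3 and 4, and 3.63 to 5.72 in deficient libraries. With a library left out, Clec4f passed only without wild type 3 or 4. None of the 4 called markers, which were Cd5l, Csf1r, Adgre1 and Clec4f, passed without deficient 3 (adjusted p = 0.062, 0.093, 0.0873 and 0.12), and of the 4 Cd5l alone passed without wild type 1. The part of these cells in the fall of Slc7a7 was not tested.

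Slc7a6 (ENSMUSG00000031904; chromosome 8, 106895489 to 106925338, plus strand), the related light chain of wide expression, stood at 1.86, 3.89, 3.75 and 2.70 FPKM in deficient and 4.57, 5.29, 4.94 and 4.90 FPKM in wild-type libraries, without overlap. It fell by 0.69 (SE 0.22, edgeR adjusted p = 0.0423), but with a library left out it passed only without deficient 2, at -0.83 (adjusted p = 0.0269). In the other 7 cases its adjusted p lay between 0.0504 without deficient 3 and 0.0934 without wild type 3. Slc7a6os, which lies 2.0 kb beyond it on the opposite strand, was at 3.74 ± 0.688 and 3.42 ± 0.538 FPKM (SD, n = 4, edgeR adjusted p = 0.652).

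Slc3a2, the heavy chain that carries these light chains to the membrane, was estimated higher but did not pass (0.46, SE 0.22, edgeR adjusted p = 0.154). Deficient libraries held 18.2, 31.9, 34.7 and 25.7 FPKM and wild-type libraries 14.6, 20.4, 20.65 and 24.5 FPKM. Deficient 1 lay within the wild-type range and the other 3 deficient libraries above it. Set against this heavy chain within each library, Slc7a6 was at 0.102, 0.122, 0.108 and 0.105 in deficient and 0.313, 0.259, 0.239 and 0.200 in wild-type libraries. The deficient ratios were nearly alike, and all lay under the wild-type ratios. Slc7a7 to Slc3a2 was 0.0166 to 0.0399 in deficient and 0.0588 to 0.182 in wild-type libraries, whereas Slc7a5 to Slc3a2 overlapped (0.0826 ± 0.0148 and 0.108 ± 0.0471, SD, n = 4).

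**Figure D4:**
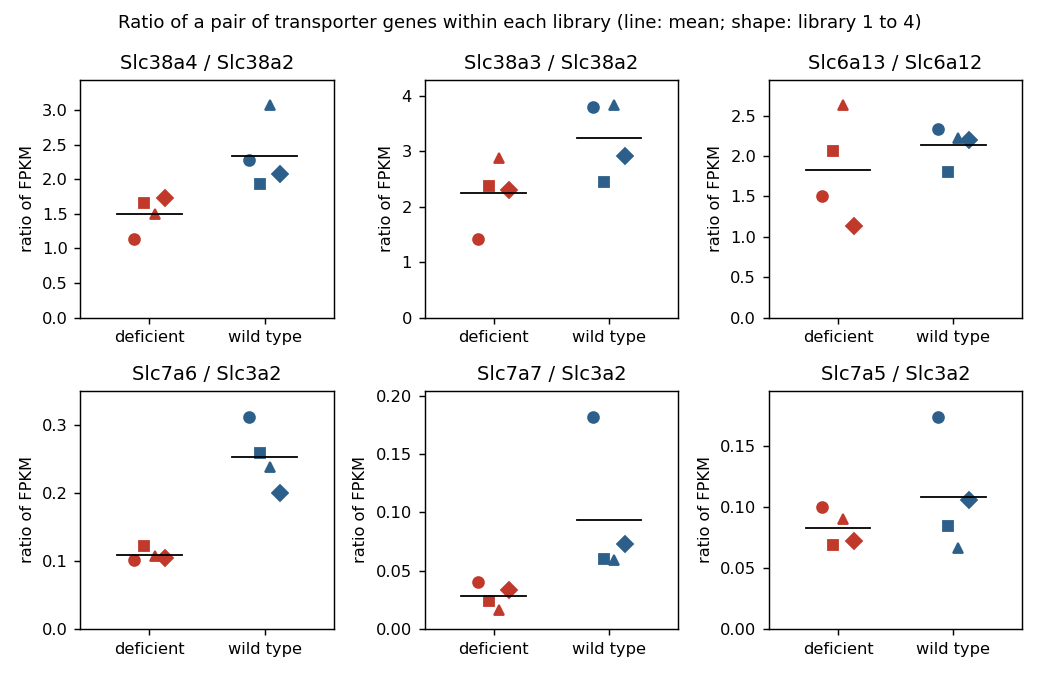
Ratio of the FPKM of a pair of transporter genes within each library, with the group mean as a line and the symbol giving the library number. For Slc38a4 to Slc38a2, Slc7a6 to Slc3a2 and Slc7a7 to Slc3a2 every deficient library lies under every wild-type library, and the other 3 ratios overlap.

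Slc7a5, the large neutral amino acid light chain that activated lymphocytes raise, was at 2.25 ± 0.608 and 2.06 ± 0.612 FPKM (SD, n = 4, edgeR adjusted p = 0.771). T and NK cell markers were sparse, at 5.28 to 8.45 CPM summed over 8 markers in deficient and 3.69 to 6.82 CPM in wild-type libraries, with none at 0 reads. Slc3a1, the heavy chain of the kidney and gut cystine carrier, did not pass (adjusted p = 0.7). It stood at 7.23, 6.76, 7.34 and 8.55 FPKM in deficient and 4.96, 8.11, 11.6 and 8.16 FPKM in wild-type libraries. Its cystinuria partner light chain, Slc7a9, had 1 read in all libraries together. Prepl overlaps Slc3a1 by 767 bases on the opposite strand.

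Cystine import by Slc7a11, the light chain xCT, was barely represented, with 9 to 51 reads per library (-0.69, SE 0.53, edgeR adjusted p = 0.381). Wild type 1 had the most reads. Cells lacking amino acids raise this gene through a pair of composite C/EBP-ATF elements in its promoter, and these are shown because the same element was searched in all members. Both are printed from the strand of the gene, from RefSeq on GRCm38.p6, with the matched TGATGNAA or its reverse complement in capitals. They begin 66 and 47 bases before the start site at chr3:50443661-50443690 and chr3:50443642-50443671, minus strand, and the windows overlap.
Slc7a11 distal element: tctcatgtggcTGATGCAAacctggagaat
Slc7a11 proximal element: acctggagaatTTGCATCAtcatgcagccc

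Of the cationic carriers, Slc7a1 fell and Slc7a2 did not pass. Slc7a2 (ENSMUSG00000031596), which encodes the arginine carrier CAT2 typical of liver, stood at 45.8, 64.0, 51.55 and 47.9 FPKM in deficient and 42.5, 72.8, 89.3 and 68.3 FPKM in wild-type libraries (-0.38, SE 0.22, edgeR adjusted p = 0.235). Wild type 1 lay under all deficient libraries, and the other wild-type libraries above them. Without wild type 1 Slc7a2 passed, at -0.57 (adjusted p = 0.046).

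Slc7a1 (ENSMUSG00000041313; chromosome 5, 148264220 to 148336714, minus strand), the widely expressed arginine carrier CAT1, was much lower in level. Deficient libraries held 0.680, 0.851, 0.441 and 0.488 FPKM and wild-type libraries 1.52, 1.24, 0.904 and 1.01 FPKM, with 88 to 277 reads per library. The groups did not overlap, although deficient 2 and wild type 3 came close. Slc7a1 fell by 0.93 (SE 0.25, edgeR adjusted p = 0.0239). Leaving out deficient 3 or 4, or wild type 1 or 2, ended the call, with adjusted p = 0.0636, 0.0567, 0.053 and 0.0505. In limma on log2(FPKM + 1) it was at -0.36 (adjusted p = 0.0734). Slc7a4 had 0 to 11 reads per library (adjusted p = 0.303).

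Of the SLC43 genes, Slc43a1 fell. Slc43a1 (ENSMUSG00000027075; chromosome 2, 84669194 to 84693938, plus strand), the carrier LAT3, stood at 2.07, 5.06, 2.76 and 3.71 FPKM in deficient and 6.57, 5.52, 6.44 and 4.62 FPKM in wild-type libraries. Deficient 2 lay within the wild-type range. It fell by 0.77 (SE 0.25, edgeR adjusted p = 0.0465). With a library left out it passed only without deficient 2, at -1.02 (adjusted p = 0.0111), and otherwise lay between adjusted p = 0.051 without wild type 4 and adjusted p = 0.119 without deficient 3.

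Slc43a3, 73.0 kb from Slc43a1 on the same strand and known as a carrier of purine bases, was at 7.61, 3.49, 4.38 and 5.16 FPKM in deficient and 9.75, 5.65, 5.17 and 4.98 FPKM in wild-type libraries (adjusted p = 0.446). Library 1 was the highest of each group. Slc43a2 had 10 to 65 reads per library (adjusted p = 0.337).

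No SLC1 or SLC36 gene passed the threshold. Slc1a2, the glutamate carrier that marks the hepatocytes around the central vein, stood at 4.61, 7.86, 5.67 and 6.86 FPKM in deficient and 7.33, 6.62, 9.91 and 7.15 FPKM in wild-type libraries (-0.31, SE 0.20, edgeR adjusted p = 0.284). The groups overlapped. The summed level of 8 pericentral markers, most of it Cyp2e1, was 3128 to 5369 CPM in deficient and 5650 to 8086 CPM in wild-type libraries. Of 7 tested 1 was lower (14.3%, beside 10.6% of all genes), and none of the 8 was at 0 reads. Slc1a5, a glutamine exchanger that dividing cells raise, was estimated higher, at 3.28 ± 0.740 and 1.87 ± 1.16 FPKM (0.81, SD, n = 4, edgeR adjusted p = 0.149). Its wild-type values ran from 0.695 in wild type 3 to 3.40 in wild type 1, inside and outside the deficient range of 2.635 to 4.295 FPKM, and without wild type 1 it passed at 1.25 (adjusted p = 0.03). Slc1a4, its relative, was at 3.86 ± 0.984 and 4.74 ± 1.49 FPKM (SD, n = 4, edgeR adjusted p = 0.434). The proton-coupled carriers Slc36a1 and Slc36a4 were at adjusted p = 0.26 and 0.779.

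**Figure D5:**
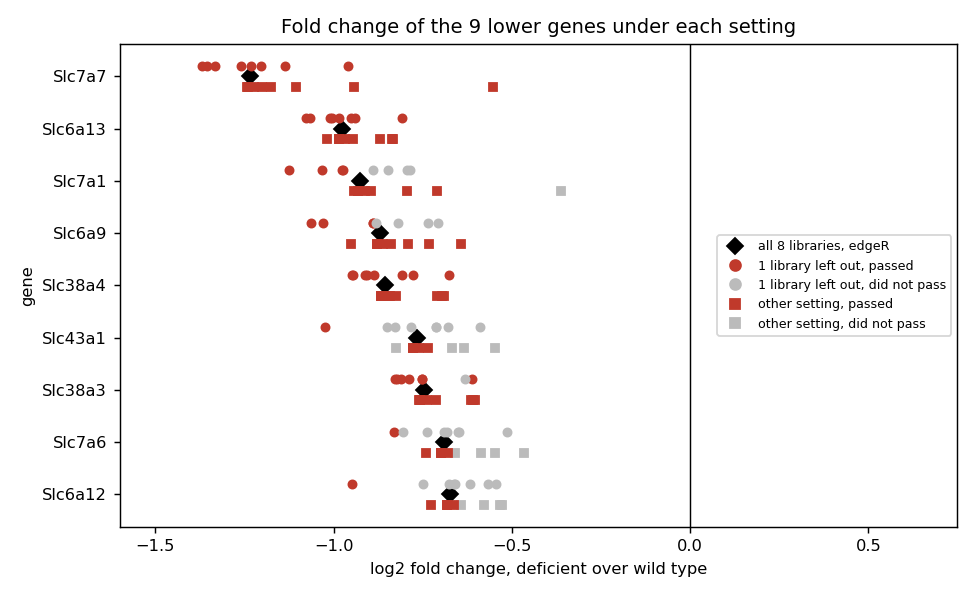
Log2 fold change of the 9 lower genes under each setting: a black diamond for the test on all 8 libraries, circles for each library left out and squares for the other settings, grey where the adjusted p was 0.05 or more. Slc7a7, Slc6a13 and Slc38a4 have no grey point, and Slc43a1, Slc7a6 and Slc6a12 have mostly grey circles, while every estimate lies below 0.

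Within groups, the lower genes varied more among deficient than among wild-type libraries in several cases. The coefficient of variation of Slc6a9 was 39.7% over deficient and 5.57% over wild-type libraries, that of Slc7a6 31.2% and 6.01%, and that of Slc6a13 26.5% and 6.61%. It was the other way round for Slc38a4, at 16.2% and 24.0%, and for Slc7a7, at 15.7% and 39.3%. These are descriptions of 4 libraries each, without a test.

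Promoters were examined because 9 members were lower together. RefSeq windows on GRCm38.p6, from 250 bases before to 50 after each start site, matched 46 of the 64 symbols and 23 of the 32 tested genes, with 67 and 40 start sites. Among the 9 lower genes all but Slc38a3 matched, with 24 start sites, some of which share bases. The C/EBP-ATF composite TGATGNAA, read on both strands, was in 2 of these 24 windows, both of Slc7a7, and in 3.97% of all 32851 promoter windows. The antioxidant core TGACNNNGC was in 7 of the 24 windows, belonging to Slc6a13, Slc6a9, Slc7a6, Slc7a1 and Slc43a1, and in 12.4% of all windows. These windows are not independent, since the 2 of Slc7a6 overlap and hold the same match. The 2 matched windows of Slc7a7 overlap as well and share 1 TGATGNAA match, and 1 of them holds a further match. Counted by gene, the core was in 5 of the 8 lower genes with a window and in 7 of the 23 tested genes with one. The share by gene over all genes was not computed, so the count by gene cannot be set against 12.4%. The 8 lower genes held 24 of the 40 windows of the tested genes, and a gene with more windows has more places to match. A match is a description of letters, not of a bound site. The median CpG number was 7.0 in the 24 windows, 18.5 in the windows of the other tested members and 7.0 over all promoters. Genes with more start sites weigh more in these medians. The lower genes were unlike one another, with 2 to 5 in the windows of Slc6a12, 41 and 42 in those of Slc7a6 and 26 in that of Slc43a1.

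One match of each lower gene that has one is shown 5′ to 3′ on the strand of the gene with the match in capitals. Slc6a13, which had the smallest adjusted p, is given for the whole 250 bases before its first start (chr6:121300038-121300287, plus strand). Slc6a9 and Slc7a7 each have a second matched window, at another start site, that is not printed. That of Slc7a7 overlaps the window of the printed match, and its own match lies in both. The others are short windows at chr4:117849294-117849323 (Slc6a9, plus strand), chr8:106168843-106168872 (Slc7a6, plus strand), chr5:148399905-148399925 (Slc7a1, minus strand), chr2:84840297-84840322 (Slc43a1, plus strand) and chr14:54418067-54418096 (Slc7a7, minus strand). The matches begin 82, 46, 68, 11, 16 and 141 bases before the start site of Slc6a13, Slc6a9, Slc7a6, Slc7a1, Slc43a1 and Slc7a7.
Slc6a13: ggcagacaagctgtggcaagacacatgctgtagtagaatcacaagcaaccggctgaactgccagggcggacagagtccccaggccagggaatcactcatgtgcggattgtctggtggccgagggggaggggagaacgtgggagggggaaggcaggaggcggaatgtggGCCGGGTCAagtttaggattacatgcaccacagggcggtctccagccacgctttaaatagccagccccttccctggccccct
Slc6a9: tgaaagtaatTGACGCTGCccagcccggca
Slc7a6: ccggtgcgagTGACGTGGCgtgggcggggc
Slc7a1: cggccgcgcgGCGCTGTCAtt
Slc43a1: agcgccgccgGCTGTGTCAggcggga
Slc7a7: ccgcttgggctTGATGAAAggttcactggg

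Genes that work with these carriers were examined from lists of related function. Of 9 other carriers of amino acids and peptides, 7 were tested, 2 rose (28.6%, beside 9.27% of all genes) and 0 fell. In 6 of the other settings 3 rose. Both that rose are lysosomal exporters. Slc66a1, which exports cationic amino acids from the lysosome, stood at 4.43, 5.14, 6.45 and 5.0 FPKM in deficient and 2.23, 2.42, 2.50 and 2.42 FPKM in wild-type libraries, an increase of 1.14 (SE 0.17, edgeR adjusted p = 0.00419). Ctns, the lysosomal cystine exporter, stood at 5.94, 6.01, 6.76 and 6.46 FPKM in deficient and 2.20, 3.03, 3.38 and 3.36 FPKM in wild-type libraries, and rose by 1.07 (SE 0.17, edgeR adjusted p = 0.00481). The groups did not overlap for either gene, and both passed in every setting run. The next members by p, the peptide carriers Slc15a4 and Slc15a3, did not pass (adjusted p = 0.0513 and 0.0715).

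Of 31 tested genes that relay amino acid supply to mTORC1, 4 rose (12.9%, beside 9.27% of all genes) and 1 fell (3.23%, beside 10.6%), with a median of 0.10. Lamtor1, the anchor of the Ragulator complex on the lysosome, rose by 1.01 (SE 0.15, edgeR adjusted p = 0.00419), from 6.08 ± 0.432 to 12.3 ± 1.95 FPKM (SD, n = 4), and in every setting run. Wdr24 and Sesn2 also rose, at 0.63 and 0.72, while Kptn fell by 0.78. The fourth that rose was Rragc, a GTPase of the same relay, at 0.55 (adjusted p = 0.0479), which with a library left out passed only without deficient 1. Each of the others but Lamtor1 lost its call without some library. For Wdr24 these libraries were deficient 3 and wild type 2, 3 and 4, with adjusted p = 0.0656 to 0.0803. For Sesn2 they were deficient 2, 3 and 4 and wild type 1 and 3, with adjusted p = 0.0564 to 0.0878, and for Kptn deficient 3 and wild type 1 and 3, with adjusted p = 0.0552 to 0.072. Leaving out deficient 3 or wild type 3 left 1 gene of the list that rose, and any other library but deficient 1 left 2. Leaving out wild type 1 or 3, or scaling by library size alone, left 0 that fell.

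Of 29 tested genes of the amino acid response, which ATF4 drives when amino acids are short, 3 rose (10.3%, beside 9.27% of all genes) and 4 fell (13.8%, beside 10.6%), shares near those of all genes, with a median of 0.23. Those that rose were Sesn2, described above, the seryl-tRNA synthetase gene Sars (0.49, adjusted p = 0.0333) and the stress protein gene Nupr1 (0.79, adjusted p = 0.0376). Sars passed with a library left out only without deficient 1 or wild type 4, and Nupr1 only without deficient 2 or wild type 2. Gdf15, a stress hormone, fell by 1.76 (SE 0.33, edgeR adjusted p = 0.00708), from 303 ± 55.9 to 89.5 ± 48.3 FPKM (SD, n = 4). Cth, which makes cysteine, fell by 1.40 (SE 0.36, edgeR adjusted p = 0.0198), though not without wild type 3 (adjusted p = 0.0647), and Chac1, which degrades glutathione, fell by 0.85 (edgeR adjusted p = 0.0311). The call of Chac1 ended when any of deficient 1, 3 and 4 and wild type 2 and 3 was left out, with adjusted p = 0.054 to 0.0853. The fourth that fell was Atf3, a stress-induced transcription factor (-1.38, adjusted p = 0.047), which with a library left out passed only without deficient 2 or 4. Atf4 itself was at adjusted p = 0.273 and Asns, a classic target, at adjusted p = 0.976. Cebpb, which encodes a C/EBP factor, stood at 247, 348, 218.5 and 338 FPKM in deficient libraries 1 to 4 and at 405, 4.02, 6.09 and 6.86 FPKM in wild-type libraries 1 to 4. Wild type 1 lay above every deficient library and the other 3 wild-type libraries far under all of them. On all 8 libraries Cebpb did not pass (1.45, SE 1.17, edgeR adjusted p = 0.406), and without wild type 1 it was at 5.65 (adjusted p = 1.1e-05). It passed as well in limma on log2(FPKM + 1) (4.08, adjusted p = 0.0304). It was named after its values were seen. In this list 7 genes rose when libraries were scaled by size alone, 6 in DESeq2, and 9 and 8 in limma on log2(FPKM + 1) and log2(FPKM + 0.1). Leaving out deficient 3, deficient 4 or wild type 3 left 0 that rose, and deficient 2 left 1. Leaving out wild type 3 left 1 that fell, and deficient 1, deficient 3 or wild type 2 left 2.

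Of 9 enzymes of glutamine and glutamate, 2 fell (22.2%, beside 10.6% of all genes) and 0 rose, with a median of -0.28. The number that fell was 4 in DESeq2, 0 with library size alone and in limma on log2(FPKM + 0.1), and 0 when deficient 1, wild type 3 or wild type 4 was left out. Glul, the glutamine synthetase of pericentral hepatocytes, fell by 0.53 (SE 0.15, edgeR adjusted p = 0.0289), with 262.8 to 333 FPKM in deficient and 402.5 to 459.5 FPKM in wild-type libraries. Glud1, glutamate dehydrogenase, fell by 0.73 (edgeR adjusted p = 0.0365). Glul lost its call when deficient 1 or 4 or wild type 2, 3 or 4 was left out, with adjusted p = 0.0596 to 0.0808, and Glud1 when deficient 1, 3 or 4 or wild type 1, 3 or 4 was left out, with adjusted p = 0.0529 to 0.106. Scaled by library size alone, they were at adjusted p = 0.0689 and 0.0629. Of 10 genes of glutathione synthesis and the glutamyl cycle 2 fell, beside 10.6% of all genes, and 0 rose, beside 9.27%. The 2 were Chac1 and the aminopeptidase Anpep, at -0.66 (SE 0.16, edgeR adjusted p = 0.0152), which did not pass without wild type 3 (adjusted p = 0.0511). In this list 0 fell without wild type 3. Only 1 fell without deficient 1, 3 or 4 or wild type 2, and in limma on log2(FPKM + 0.1). Of 6 tested accessory proteins, 1 fell (16.7%, beside 10.6% of all genes) and 0 rose. It was Nedd4l, a ubiquitin ligase that removes carriers from the membrane. Nedd4l was at -0.84 (SE 0.19, edgeR adjusted p = 0.0141), from 9.52 ± 0.514 to 5.31 ± 1.43 FPKM (SD, n = 4), and passed in every setting run.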

How the data were processed

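RNA of mouse liver was sequenced in 8 libraries. The members and lists were chosen with earlier results of these data known. Per the submitters' processing notes, the authors used cutadapt and HISAT2 2.0.5. How reads were counted, whether by strand, with which annotation and on which build is not given in the sources used here, and coordinates are as the table lists them. Per the file headers, the deposited table holds a raw read count and an FPKM per gene and library. FPKM recomputed from counts and lengths differed from the deposited FPKM by at most 6.96e-05%. Counts were tested with edgeR 4.0.16 (R 4.3.3) with TMM scaling and its default filter, which left 11380 of 21899 genes, and adjusted by Benjamini-Hochberg at 0.05. Levels were computed from the counts as TMM-scaled FPKM. The standard error is the log2 fold change over the square root of the F statistic. Groups came from the genotype label and library numbers from the titles. Members past the threshold or at 5 FPKM or more are named with values. Of each list up to 4 genes by p are named, and Rragc, Sars, Nupr1, Atf3, Cebpb, Arg1, Sox9, Mmp8, Cxcr2 and Fgb after their values were seen. The same holds for Cyp2f2, Cdh1, Spp1, Krt19, Krt7 and Epcam. The other settings were limma 3.58.1 on log2(FPKM + 1) and log2(FPKM + 0.1) (0.5 FPKM in 4 libraries), no filter, 1 CPM in 4 libraries, library size alone, RLE factors, DESeq2 1.42.0, a replicate block and each library left out. Both limma settings used the deposited FPKM, without TMM factors. The edgeR step was tested on simulated data. Ratios of gene pairs, and TMM-scaled FPKM as the printed level, were chosen after the values were seen. Symbols of 4 tRNA synthetases were matched by their older names. Intervals of counting do not cover library preparation.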

Additional observations from a re-analysis of the deposited data

Results flagged for a closer look

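Groups of 4 values were examined for 32 transporter genes and 28 named genes of the lists, 120 groups in all, and 10 held a library far from the other 3. Chance flags about 1 in 20 groups. The list genes were named by their p or, as with Cebpb, Sox9 and Mmp8, after their values were seen. The 10 flags therefore cannot be set against that share, and only those of Slc43a3 and Slc6a8 concern transporters. Among transporters, Slc43a3 was at 9.75 FPKM in wild type 1 and at 4.98 to 5.65 FPKM in the other wild-type libraries, and Slc6a8 at 2.004 FPKM in wild type 1 against 2.88 to 3.04 FPKM. Neither gene passed the threshold. Wild type 1 also stood apart for Cebpb (405 FPKM against 4.02 to 6.86) and for the macrophage gene Cd5l (17.65 against 4.79 to 6.53). It had the highest summed erythroid (1440 CPM), endothelial (101 CPM) and Kupffer cell markers (115 CPM) of the 8 libraries. Their part in the transporter values was not tested. Wild type 2 stood apart for Chac1 (31.2 FPKM against 17.6 to 19.0). Among deficient libraries, deficient 2 was high for Chac1 (17.6 FPKM against 9.55 to 10.8) and Sox9 (23.4 against 2.33 to 5.11), deficient 3 high for Lamtor1 (15.2 against 11.2 to 11.4) and low for Kptn (1.07 against 1.70 to 1.77), and deficient 4 high for Mmp8 (3.36 against 0.716 to 1.13).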

How the results depend on the processing

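The number of lower members was 5 in limma on log2(FPKM + 1), beside 9 in the test used, and 4 to 9 with a library left out. The number of higher members was 0 to 1 with a library left out. Over all genes, 454 to 1079 were higher and 528 to 1309 lower with a library left out, 1731 were higher with library size alone, and 1586 were higher and 771 lower in limma on log2(FPKM + 0.1). The log2 ratio of summed levels moved to 0.11 for SLC1 without Slc1a2 and to -0.14 for SLC3 without Slc3a2. The sign of 4 genes that did not pass turned. With a library left out, Slc38a10 ran from -0.045 to 0.239, Slc3a1 from -0.329 to 0.076, Slc7a5 from -0.079 to 0.27 and Slc36a4 from -0.036 to 0.244, turning without deficient 3 or, for Slc3a1 and Slc7a5 (-0.033), without wild type 3. Slc3a1 was also at 0.054 and 0.065 in limma on log2(FPKM + 1) and log2(FPKM + 0.1) and at 0.021 with library size alone. The cause was not tested. The numbers in the titles did not pair the libraries, with correlations of same-numbered libraries of 0.13, -0.11, 0.07 and -0.11. With the replicate block 9 members were lower and 0 higher, Slc43a1 was at adjusted p = 0.0612 and Slc6a6 at adjusted p = 0.0476. Members with at most 50 reads in all were not tested at this depth.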
